A study of Mus musculus with 12 samples.

Results

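The genes described here are 10 enzymes that attach fatty acids to coenzyme A or release them from it: the long-chain acyl-CoA synthetases Acsl1, Acsl3, Acsl4 and Acsl5, the medium-chain acyl-CoA synthetases Acsm3 and Acsm5, and the acyl-CoA thioesterases Acot1, Acot2, Acot7 and Acot9. They were chosen by gene symbol in the array's gene-name table, which lists 18002 genes on 25697 probes. The 10 genes had 24 of those probes, and 16 of the 24 were detected often enough to be kept, at least 1 for every gene. All 10 genes were therefore tested, among 11705 genes in all. RNA came from the epididymal fat of male C57BL/6J mice aged 20 weeks, measured on an Illumina mouse bead array whose values are normalized intensities without a unit.

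The 12 arrays formed 4 groups of 3 RNA pools. They were Siah2 knockout mice on a diet with 45% fat, Siah2 knockout mice on a 10% fat diet, wild type mice on the 45% diet and wild type mice on the 10% diet, called high fat and low fat below. The diets ran from 4 weeks of age, and Siah2, which encodes a ubiquitin ligase, was disrupted in the whole animal and not in fat alone. The knockout high fat group held 8 animals and each other group 10, combined into pools of 2 to 4 animals. The spread between arrays is therefore a spread between pools. In whole fat, fewer cells of a type and less RNA per cell cannot be told apart.

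A fatty acid that enters a fat cell is first joined to coenzyme A by an acyl-CoA synthetase, and the acyl-CoA is then available for storage in triglyceride, for membrane lipids or for oxidation. Thioesterases split the acyl-CoA and return the free fatty acid. Both families are divided by the chain length they prefer and by where in the cell they sit, with long-chain synthetases on the endoplasmic reticulum and the outer mitochondrial membrane and medium-chain synthetases inside mitochondria.

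Acsm3 and Acsm5 were the members that fell on high fat in knockout fat, and Acot1 and Acot2 are neighbours with no protein-coding gene between them. The Acot2 probe was dim on all 12 arrays, with no clear pattern to set beside that of Acot1. The regions just upstream of these 4 genes are shown. Each is the 250 bases before the annotated start, from RefSeq (GRCm38.p6), all on the plus strand: chr7:119760673-119760922 for Acsm3, chr7:119526015-119526264 for Acsm5, chr12:84009252-84009501 for Acot1 and chr12:83987611-83987860 for Acot2. Capitals mark matches to the motifs named after the sequences.
Acsm3: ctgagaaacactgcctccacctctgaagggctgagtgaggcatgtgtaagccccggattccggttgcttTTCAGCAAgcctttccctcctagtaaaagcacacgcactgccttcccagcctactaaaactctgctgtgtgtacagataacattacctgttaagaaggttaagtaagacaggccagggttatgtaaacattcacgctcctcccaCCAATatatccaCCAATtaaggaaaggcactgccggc
Acsm5: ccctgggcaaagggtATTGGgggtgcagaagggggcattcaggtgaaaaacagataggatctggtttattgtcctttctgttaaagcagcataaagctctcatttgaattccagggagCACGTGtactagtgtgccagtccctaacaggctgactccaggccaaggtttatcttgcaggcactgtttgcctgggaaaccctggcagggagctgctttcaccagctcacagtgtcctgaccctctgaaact
Acot1: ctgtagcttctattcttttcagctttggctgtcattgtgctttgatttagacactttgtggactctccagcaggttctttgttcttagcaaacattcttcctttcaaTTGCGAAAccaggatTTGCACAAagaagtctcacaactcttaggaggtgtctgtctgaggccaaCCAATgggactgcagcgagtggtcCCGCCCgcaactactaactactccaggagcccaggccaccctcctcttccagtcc
Acot2: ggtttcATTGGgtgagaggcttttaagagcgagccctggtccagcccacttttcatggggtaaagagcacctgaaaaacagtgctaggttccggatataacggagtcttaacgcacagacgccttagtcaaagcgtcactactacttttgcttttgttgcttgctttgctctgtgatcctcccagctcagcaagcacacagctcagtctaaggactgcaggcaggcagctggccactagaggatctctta
Motifs were searched on both strands in the 11 promoters annotated for the 10 genes and in all 32851 promoters of the same length. The CCAAT box (CCAAT) was in promoters of 8 of the 10 genes and in 33.8% of all promoters. The GC box (GGGCGG) was in those of 6 genes and in 32.7% of all. The C/EBP core, written TTGCNNAA, was in those of Acsm3 and Acot1 and in 9.56% of all promoters, with 1 match for Acsm3 and 2 for Acot1. The E-box CACGTG was in that of Acsm5 and in 6.02% of all, and the TATA box TATAAA in that of Acot9 and in 12.4% of all. The nuclear receptor half-site AGGTCA, in 14% of all promoters, and its direct repeat with 1 base between the copies, which contains it and was in 0.0335%, had no match in any of the 11 windows. Acsm3 and Acsm5 lie on chromosome 7 with 5 protein-coding genes between them, 3 of which are further Acsm genes.

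Each array detected between 13389 and 15037 probes, and an intensity of 27.9 served as an approximate floor. The Siah2 probe averaged 66.0 ± 19.3 on the 6 knockout arrays and 99.0 ± 15.6 on the 6 wild type arrays (SD, exact two-sided permutation p = 0.0108). That test took both diets together. In the limma fit applied to the members below, the Siah2 difference averaged over diets did not pass (-0.37 on the log2 scale, adjusted p = 0.0795). The library labelled knockout, low fat, replicate 1 had a Siah2 intensity of 101.9, inside the wild type range of 78.6 to 121.1. Values without it, called the reduced set below, therefore stand beside most single-gene knockout results that use it. Counts, overlaps and medians include it unless stated. Whether the probe lies in the disrupted part of Siah2 is not stated. The fat cell marker Adipoq was bright in every group, with means of 32199.5 in knockout high fat, 33758 in knockout low fat, 30869 in wild type high fat and 26447 in wild type low fat.

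Transcripts of neighbouring organs moved with the groups. The mean log2 value of 10 measured epididymal genes was 5.87, 8.79 and 5.81 in knockout high fat, 9.32, 8.16 and 9.96 in knockout low fat, 6.40, 6.52 and 6.31 in wild type high fat and 13.79, 13.70 and 11.98 in wild type low fat. The same mean over 6 seminal vesicle genes was 5.79 in knockout high fat, 9.29 in knockout low fat, 5.84 in wild type high fat and 14.13 in wild type low fat. All wild type low fat arrays thus stood above every other array in both lists, and knockout high fat replicate 2 stood above the other high fat arrays in the epididymal list. The summed intensity of that list was 40712 on this array, against 5679 on knockout low fat replicate 2 and 81.7 to 706.9 on the other high fat arrays. Of the defining genes, Svs5 of the seminal vesicle was at 9.38 to 33.3 and Gpx5 of the epididymis at -5.29 to 4.89 on the 6 high fat arrays, including that one. The 10 macrophage markers averaged 10.75 in knockout high fat, 9.23 in knockout low fat, 11.27 in wild type high fat and 8.88 in wild type low fat. Of 11 measured skeletal muscle genes the mean was highest, at 9.39, in the library labelled knockout, low fat, replicate 1. The part of these transcripts in the results below was not tested beyond the values given.

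The effect of the high fat diet was asked first within each genotype. In knockout fat 2 of the 10 genes passed the test, Acsm3 and Acsm5, where 4.37% of all tested genes did, and both fell, where 0.820% of all genes fell. In wild type fat 6 of 10 passed, where 39.5% of all genes did: Acsl1, Acsl5 and Acot7 rose, as did 22.8% of all genes, and Acsl4, Acsm3 and Acot1 fell, as did 16.8%. The diet groups did not overlap for 3 of 10 genes in knockout, where 22.0% of all genes showed this, and for 6 of 10 in wild type, where 51.6% did. Acsl3, Acot2 and Acot9 passed in neither genotype. The median log2 change over the 10 genes was -0.09 in knockout and -0.31 in wild type, against -0.01 and 0.06 over all genes. Log2 changes were computed from intensity plus 50 and are given with limma's standard error (SE) and adjusted p, for which the threshold was 0.05.

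**Figure D1:**
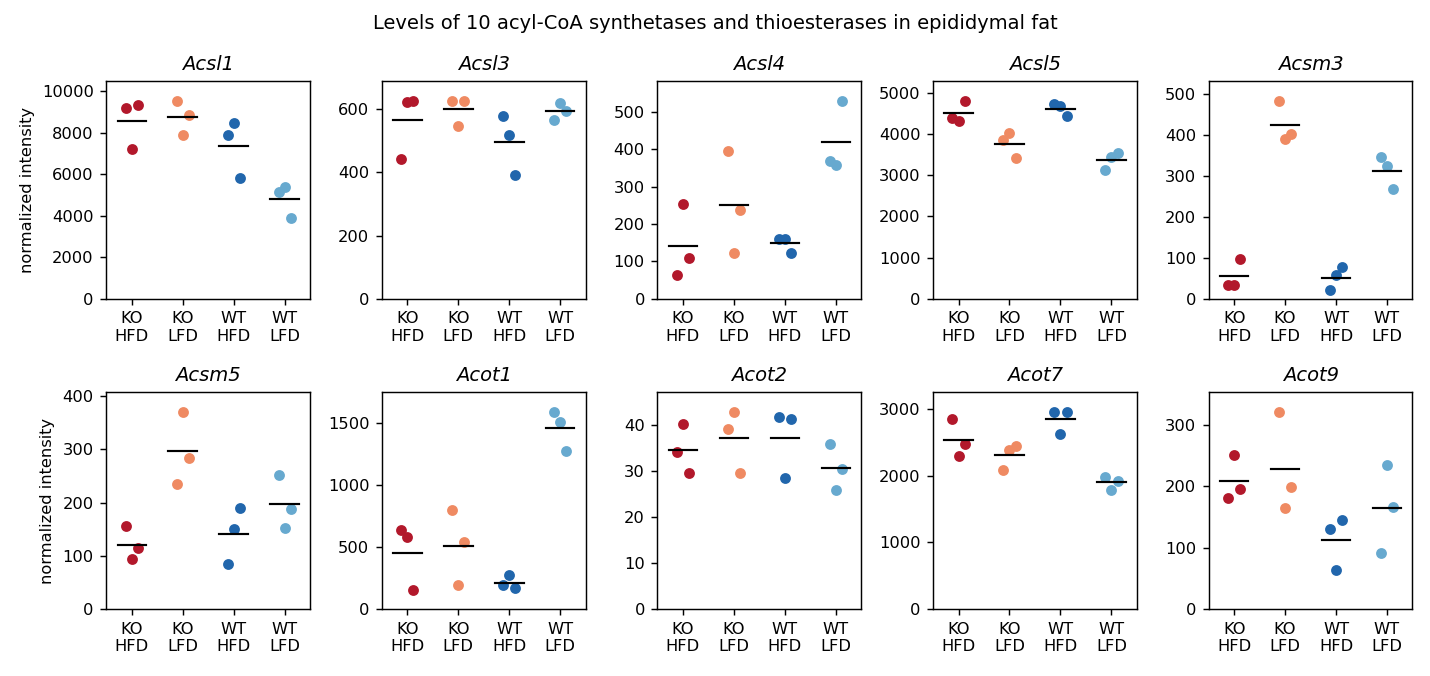
Normalized intensity of the 10 genes on each of the 12 arrays, with 1 point per RNA pool and a line at the mean of each group of 3 pools (axes differ between genes). Acsm3 is at most 97.8 on the 6 high fat arrays and at least 267 on the 6 low fat arrays, and Acot1 is at least 1272 in wild type low fat and at most 800 elsewhere.

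Acsm3, a mitochondrial enzyme that activates medium-chain fatty acids, showed the largest diet difference of the 6 member synthetases in both genotypes. Its intensity was 32.6, 33.7 and 97.8 in knockout high fat, against 483, 389 and 401 in knockout low fat. In wild type fat it was 21.2, 57.7 and 76.2 on high fat, against 346, 324 and 267 on low fat. Every high fat pool lay below every low fat pool, and 1 of the 3 wild type high fat pools was below the floor. The fall was -2.23 (SE 0.25, adjusted p = 0.00266) in knockout, a ratio of means of 7.76-fold lower. In wild type it was -1.87 (SE 0.25, adjusted p = 0.000409), with means 6.04-fold lower. The difference between the knockout and wild type diet changes was -0.36, with a 95% interval of -1.15 to 0.42 and an adjusted p of 0.574.

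The Acsm3 fall in knockout was -2.14 (adjusted p = 0.0156) in the reduced set, and the difference between genotypes was -0.28 (adjusted p = 0.678). After adding the epididymal mean to the fit (the epididymal covariate), the changes were -2.33 (adjusted p = 0.0666) in knockout and -2.16 (adjusted p = 0.998) in wild type, where 9 and 2 of all genes still passed. With the seminal vesicle mean in its place (the seminal vesicle covariate), an alternative chosen after seeing the data, they were -1.72 (adjusted p = 0.458) in knockout and -0.66 (adjusted p = 0.898) in wild type, where 29 and 23 of all genes passed. The seminal vesicle mean varied little within groups, with SDs of 0.03 to 0.22, except in wild type low fat (1.22, values 14.82, 14.86 and 12.72). Its slope in this and every later fit therefore rests largely on wild type low fat replicate 3. The epididymal mean spread most within knockout high fat (SD 1.70, against 0.11 to 1.02 in the other groups). Its slope therefore rests in large part on replicate 2 of that group. The wild type diet groups overlapped in neither covariate, and nor did the knockout and wild type groups on low fat. The knockout diet groups did not overlap in the seminal vesicle mean. Such fits, here and below, cannot separate the covariate well from diet or genotype in those comparisons. The part of these organs in the Acsm3 change was not tested beyond these fits.

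**Figure D2:**
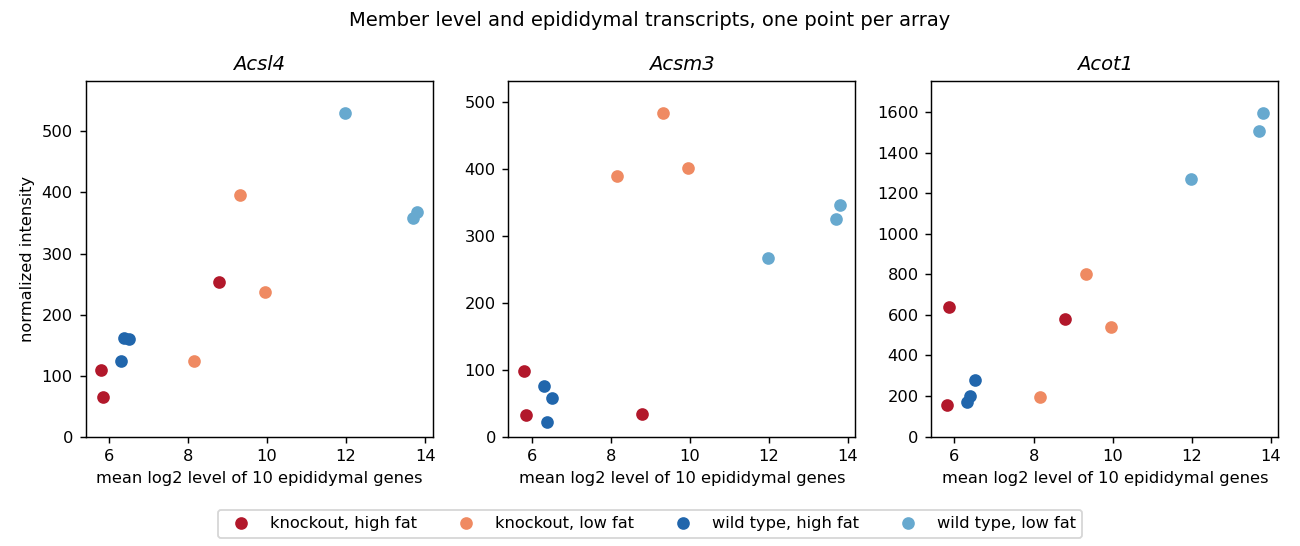
Normalized intensity of Acsl4, Acsm3 and Acot1 against the mean log2 level of 10 epididymal genes, with 1 point per array coloured by group. Acot1 is highest on the 3 wild type low fat arrays, where the epididymal mean is 11.98 to 13.79, while Acsm3 is at 389 to 483 in knockout low fat, where that mean is 8.16 to 9.96, and at 267 to 346 in wild type low fat.

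Acsm5, the other mitochondrial medium-chain synthetase, had intensities of 156, 93 and 115 in knockout high fat, against 235, 370 and 282 in knockout low fat. In wild type fat it had 84, 151 and 190 on high fat, against 252, 152 and 188 on low fat. The knockout diet groups did not overlap, and the wild type diet groups did. The change was -1.01 (SE 0.24, adjusted p = 0.0413) in knockout, with means 2.44-fold lower, and -0.39 (SE 0.24, adjusted p = 0.223) in wild type. The difference between these changes was -0.62, with a 95% interval of -1.37 to 0.13. The knockout call lay near the threshold: it was kept when wild type high fat replicate 1 or 3 or wild type low fat replicate 1 was left out and was lost without any of the 9 other arrays, at adjusted p-values from 0.0509 to 0.133. In the reduced set the knockout change was -1.14 (adjusted p = 0.0687), and the difference from the wild type change was -0.75 (adjusted p = 0.202). With all arrays the knockout change was -1.25 (adjusted p = 0.182) with the epididymal covariate and -0.67 (adjusted p = 0.793) with the seminal vesicle covariate.

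Acsl1, the main long-chain synthetase of fat cells, was among the brighter signals, with 9196, 7215 and 9329 in knockout high fat and 9532, 7898 and 8856 in knockout low fat. In wild type fat it had 7874, 8449 and 5805 on high fat and 5145, 5383 and 3911 on low fat. The 3 wild type low fat pools lay below all 9 others, and the other groups overlapped. The diet change was 0.61 (SE 0.18, adjusted p = 0.0197) in wild type and -0.04 (SE 0.18, adjusted p = 0.951) in knockout, where the reduced set gave 0.03. The wild type call was lost without wild type high fat replicate 1 (adjusted p = 0.0639) or 2 (0.0701), or without wild type low fat replicate 3 (0.0763). It was also lost with cyclic loess normalization (0.46, adjusted p = 0.0661), and the value was 0.62 with the epididymal covariate and 1.92 with the seminal vesicle covariate (adjusted p = 0.998 and 0.574).

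Acsl5, a long-chain synthetase of the endoplasmic reticulum and mitochondria, had 4385, 4326 and 4814 in knockout high fat, against 3856, 4033 and 3426 in knockout low fat. In wild type fat it had 4730, 4690 and 4444 on high fat, against 3140, 3457 and 3541 on low fat. High fat pools lay above low fat pools in both genotypes. The change was 0.45 (SE 0.10, adjusted p = 0.00505) in wild type, while in knockout it was 0.26 (SE 0.10, adjusted p = 0.202), and 0.27 (adjusted p = 0.323) in the reduced set. The wild type value was 0.10 (adjusted p = 0.998) with the epididymal covariate and 0.14 (adjusted p = 0.949) with the seminal vesicle covariate.

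Acsl4 prefers arachidonic acid and other polyunsaturated fatty acids. Its brightest probe had 64, 253 and 109 in knockout high fat and 395, 124 and 236 in knockout low fat, which overlapped. It had 161, 160 and 123 in wild type high fat, against 369, 359 and 530 in wild type low fat, which did not. The wild type change was -1.23 (SE 0.37, adjusted p = 0.0241), with means 2.83-fold lower, and the knockout change was -0.67 (SE 0.37, adjusted p = 0.414). The knockout value depended on the arrays used: it was -0.34 (adjusted p = 0.803) in the reduced set, and -1.40 (adjusted p = 0.00829) with replicates 1 and 3 alone in both knockout groups, a choice made after seeing the data. The wild type call was lost without wild type high fat replicate 1 (adjusted p = 0.0509) or 3 (0.0691), or without wild type low fat replicate 3 (0.0817). With the epididymal covariate the direction of the wild type change turned, to 0.58 (adjusted p = 0.998). It was kept at -4.00 (adjusted p = 0.577) with the seminal vesicle covariate and at -0.78 (adjusted p = 0.130) with a skeletal muscle covariate. The other 2 kept Acsl4 probes gave -0.34 each (adjusted p = 0.254 and 0.255), so the 3 probes of this gene did not give 1 answer. Acsl3, a synthetase of the endoplasmic reticulum and lipid droplets, lay between 393 and 627 on all 12 arrays with overlapping groups.

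Acot1 is a cytosolic thioesterase for long-chain acyl-CoA. Its brighter probe had 639, 582 and 154 in knockout high fat and 800, 193 and 542 in knockout low fat. It had 199, 278 and 172 in wild type high fat, against 1594, 1510 and 1272 in wild type low fat. The wild type low fat pools stood above all 9 others, and the knockout groups overlapped with a wide spread between pools. The change was -2.52 (SE 0.50, adjusted p = 0.00303) in wild type, with means 6.75-fold lower, and -0.15 (SE 0.50, adjusted p = 0.921) in knockout, where the reduced set gave 0.23 (adjusted p = 0.924). A second, dim Acot1 probe, whose means were under the floor in every group but wild type low fat, also fell in wild type by 1.06 (adjusted p = 0.00766). The wild type change of the brighter probe was -0.20 (adjusted p = 0.998) with the epididymal covariate and -2.61 (adjusted p = 0.784) with the seminal vesicle covariate.

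Acot2 is the mitochondrial counterpart of Acot1, encoded next to it and close to it in sequence. Its probe lay between 25.9 and 42.9 on all 12 arrays, near the floor, and its diet changes were -0.04 in knockout and 0.11 in wild type. Probe sequences were not used here, so whether a probe of one of these paralogs also binds RNA of the other could not be checked, and the values of both are uncertain in that respect.

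Acot7, a cytosolic long-chain thioesterase known best from brain, had 2839, 2298 and 2479 in knockout high fat and 2083, 2385 and 2435 in knockout low fat. It had 2948, 2615 and 2957 in wild type high fat, against 1984, 1790 and 1921 in wild type low fat. The wild type diet groups did not overlap and the knockout ones did. The change was 0.57 (SE 0.11, adjusted p = 0.00281) in wild type and 0.14 (SE 0.11, adjusted p = 0.589) in knockout, where the reduced set gave 0.07. All 4 kept Acot7 probes rose in wild type, by 0.57 to 0.94 on the log2 scale, and none passed in knockout. The wild type change of the brightest probe was 0.25 (adjusted p = 0.998) with the epididymal covariate and 0.55 (adjusted p = 0.796) with the seminal vesicle covariate. Acot9, a mitochondrial thioesterase, had overlapping diet groups in both genotypes.

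**Figure D3:**
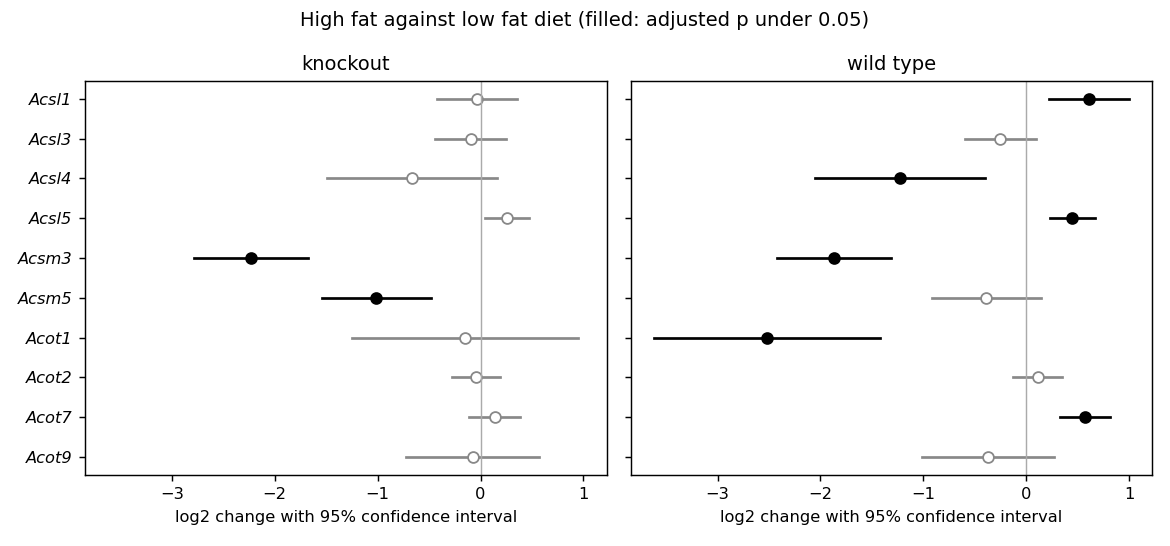
Log2 change between high fat and low fat diet for the 10 genes in knockout (left) and wild type (right), with 95% confidence intervals from limma and filled points where the adjusted p is under 0.05. Acsm3 lies at -2.23 and -1.87 in the 2 genotypes, and Acot1 at -0.15 in knockout and -2.52 in wild type.

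**Figure D4:**
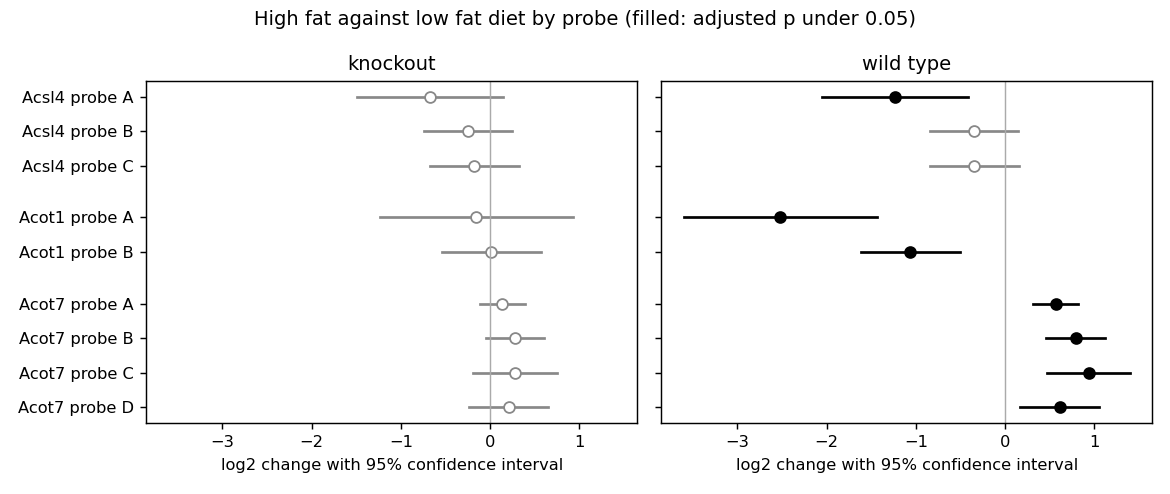
Log2 change between high fat and low fat diet of each kept probe of the 3 genes with several kept probes, in knockout and wild type, with 95% confidence intervals. The 4 Acot7 probes lie between 0.57 and 0.94 in wild type, and the 3 Acsl4 probes at -1.23, -0.34 and -0.34.

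Whether the diet changes differed between genotypes was tested as 1 contrast. None of the 10 genes passed, where 0.103% of all genes did. At an unadjusted p under 0.05 the limma fit held 3 of 10, where 20.4% of all genes reached that level. Those 3 were Acot1, with a difference of 2.36 (SE 0.70, adjusted p = 0.145), Acot7, with -0.43 (SE 0.16, adjusted p = 0.178), and Acsl1, with -0.64 (SE 0.25, adjusted p = 0.195). In the reduced set these differences were 2.75, -0.50 and -0.58 in the same order (adjusted p = 0.0618, 0.0938 and 0.197). A call in wild type without one in knockout is therefore not shown to be a difference between them for any member.

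The effect of the knockout was then asked within each diet. The diet and genotype comparisons share groups: wild type low fat is the reference of both the wild type diet change and the low fat knockout change. On high fat none of the 10 genes passed in limma, where 0.0854% of all genes did, and at an unadjusted p under 0.05 there was 1, where 11.5% of all genes reached it. That gene was Acot9, with 181, 251 and 195 in knockout high fat, against 131, 64 and 146 in wild type high fat. Its groups did not overlap, which held for 18.1% of all genes, and the change was 0.69 (SE 0.29, adjusted p = 0.408).

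On low fat 1 of the 10 genes passed, Acsl1, where 7.90% of all genes did and 4.72% were higher in knockout. The 3 knockout low fat pools, at 9532, 7898 and 8856, lay above the 3 wild type low fat pools, at 5145, 5383 and 3911. The rise was 0.87 (SE 0.18, adjusted p = 0.0253), with means 1.82-fold higher. In the reduced set it was 0.80 (adjusted p = 0.0331). The call was lost without knockout low fat replicate 2 (adjusted p = 0.0768) or 3 (0.0785), or without wild type low fat replicate 1 (0.0560), 2 (0.0846) or 3 (0.0528), and the value was 0.88 (adjusted p = 0.967) with the epididymal covariate and 1.64 (adjusted p = 0.694) with the seminal vesicle covariate. Averaged over both diets Acsl1 was the 1 member that passed, at 0.55 (SE 0.12, adjusted p = 0.0476), where 2.78% of all genes did and 1.70% were higher in knockout. That call was lost without any 1 of the 12 arrays, at adjusted p-values from 0.0523 to 0.124, and was 0.51 (adjusted p = 0.0640) in the reduced set. On low fat 3 of 10 fat cell markers were higher in knockout, as were 4.72% of all genes, and none was lower, with a median log2 change of 0.53. Medians were also positive for endothelial (0.38), fibroblast (0.34) and macrophage (0.32) markers, of which none passed. They were negative for skeletal muscle (-0.02), epididymal (-4.43) and seminal vesicle (-5.19) genes. The part of cell content in the Acsl1 difference was not tested.

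In 4 of the 10 genes the low fat groups did not overlap, which held for 33.0% of all genes. Besides Acsl1 these were Acot1, at -1.60 (SE 0.50, adjusted p = 0.0717), Acot7, at 0.27 (SE 0.11, adjusted p = 0.143), and Acsm3, at 0.39 (SE 0.25, adjusted p = 0.336). In the reduced set Acot7 was at 0.34 (adjusted p = 0.0865) and Acsm3 at 0.30 (adjusted p = 0.501). Acot1 passed at -1.99 (adjusted p = 0.0355) in the reduced set, and at -1.60 (adjusted p = 0.0448) without knockout high fat replicate 3. It was -0.22 (adjusted p = 0.989) with the epididymal covariate and -1.65 (adjusted p = 0.851) with the seminal vesicle covariate.

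**Figure D5:**
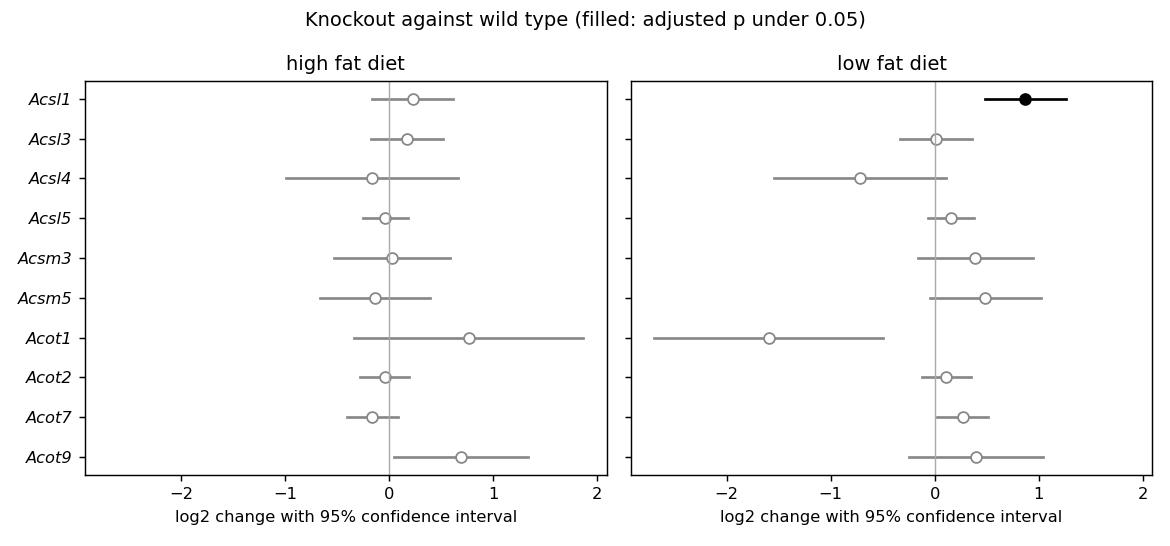
Log2 change between knockout and wild type for the 10 genes on the high fat diet (left) and the low fat diet (right), with 95% confidence intervals from limma and filled points where the adjusted p is under 0.05. Acsl1 on low fat, at 0.87, is the filled point, and Acot1 on low fat lies at -1.60 with an interval of -2.70 to -0.50.

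The order of the group means differed between members. For Acsl1 it ran from knockout low fat over knockout high fat and wild type high fat to wild type low fat, with the first 3 overlapping. For Acot1 it ran from wild type low fat, which stood alone, over the overlapping knockout low fat and knockout high fat to wild type high fat. For Acsm3 both low fat groups came first, knockout above wild type without overlap, and the high fat groups overlapped. For Acot7 both high fat groups came first, and wild type low fat was lowest without overlap with any other group.

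Patterns over the 12 arrays were compared as the mean absolute difference between log2 values, each gene centred on its own mean. Among the 10 genes, Acot7 and Acsl5 were closest, at 0.13, against mean deviations of 0.19 and 0.18 from their own means. Genes that vary little can lie close by this measure without a shared pattern. Of all other genes the 3 nearest to Acsm3 were Fam13a (0.34), Elovl6 (0.36) and Tmem79 (0.37), against a mean deviation of 1.02 of Acsm3 from its own mean. The nearest to Acsm5 were Slc1a3 (0.11), Chst1 (0.13) and Adrb3 (0.14), of which Adrb3 encodes the beta-adrenergic receptor typical of rodent fat cells. Those nearest to Acsl1 were Cpeb3 (0.12), Chpt1 (0.13) and Etfdh (0.14), and those nearest to Acsl5 were Wdhd1, Mapk14 and Tulp4 (each 0.06). Acsl4 lay nearest to Tes (0.13), Coro2a and Mkrn1 (each 0.16). Acot1 lay nearest to Acpp (0.21), Zcchc18 (0.22) and Ttc39a (0.22), and Acot7 to Tax1bp3, Tmem19 and Svbp (0.06 to 0.07). Mean deviations from their own means were 0.39 for Acsm5, 0.34 for Acsl1, 0.61 for Acsl4 and 0.95 for Acot1.

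Of 18 further synthetases 13 were measured. In knockout fat 1 fell on high fat, as did 0.820% of all genes, and none rose. It was Aacs, the cytosolic acetoacetyl-CoA synthetase, with 3874, 2824 and 3122 in knockout high fat, against 5156, 4958 and 4649 in knockout low fat. Its change was -0.59 (adjusted p = 0.0339) there and -0.53 (adjusted p = 0.0108) in wild type, and high fat pools lay below low fat pools in both genotypes. The knockout call was lost without knockout high fat replicate 2 or 3, any 1 knockout low fat array, wild type high fat replicate 2 or wild type low fat replicate 3, at adjusted p-values from 0.0516 to 0.128, and the value in the reduced set was -0.56 (adjusted p = 0.121). In wild type 2 of 13 fell, where 16.8% of all genes did, and none rose, where 22.8% did. The other that fell was Slc27a2, a fatty acid transport protein that activates very long chains. It had 11.1, 34.8 and 15.5 in wild type high fat, 2 of them below the floor, against 164, 144 and 642 in wild type low fat, a fitted change of -2.13 (adjusted p = 0.0287). This call was lost without any 1 of the wild type high fat arrays or without wild type low fat replicate 3, at adjusted p-values from 0.0510 to 0.108.

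On low fat 1 of the 13 was higher in knockout, as were 4.72% of all genes, and none was lower. It was Acss2, the cytosolic acetyl-CoA synthetase, with 12655, 6070 and 7037 in knockout low fat, against 4589, 4130 and 2634 in wild type low fat (1.13, adjusted p = 0.0367). Its highest value was that of the library labelled knockout, low fat, replicate 1, and without it the change was 0.82 (adjusted p = 0.0371). The call was lost without knockout high fat replicate 1, knockout low fat replicate 2 or 3, or any 1 wild type low fat array, at adjusted p-values from 0.0507 to 0.0971. Of 17 further thioesterases 11 were measured, and 1 of them passed in any comparison. None passed for diet in wild type, where 39.5% of all genes did. The 1 was Acot4, a peroxisomal thioesterase in mouse, which was higher in knockout on low fat. It had 244, 488 and 445 in knockout low fat, against 251, 166 and 182 in wild type low fat (0.79, adjusted p = 0.0469). These groups overlapped, and the lowest knockout value was that of the library labelled knockout, low fat, replicate 1. Without that array the change was 1.06 (adjusted p = 0.0100), and without any 1 of the 11 others the call was lost, at adjusted p-values from 0.0560 to 0.165. Of 7 acyl-CoA binding proteins 6 were measured, and Acbd4 was the 1 that passed. It rose on high fat in wild type, as did 22.8% of all genes. It had 3561, 4490 and 4084 in wild type high fat, against 2642, 2328 and 2383 in wild type low fat (0.71, adjusted p = 0.00505). None of these 5 genes passed with the epididymal or the seminal vesicle covariate, and the Acbd4 change was 0.07 (adjusted p = 0.998) with the first and 1.23 (adjusted p = 0.679) with the other.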

How the data were processed

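Normalized intensities of 12 arrays, 1 value per probe and sample, were deposited by the authors, and GenomeStudio is named in the submitters' processing notes without a version. The values are linear, 22.9% are below 0, and the column medians lie between 33.3 and 33.6, so a background had been subtracted and the arrays put on a common level. Identical values recurred between arrays, as happens when values are assigned by rank. Acsl3 was 627.133 on replicate 3 of both knockout groups. The value 2297.76 was that of Acot7 on knockout high fat replicate 2 and of Acot10 on wild type low fat replicate 2. In such values, bright transcripts of other organs can displace those of fat. The size of this in wild type low fat was not tested. Raw bead signals, an other arbitrary unit, and detection p-values were deposited in further tables under array codes that no label ties to a sample, so they served only for gene names and detection. The slide of each sample is therefore not known here and was not used in the fits, and 20 signal columns of no sample here were not used.

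Tables were joined on raw signals equal within 0.05. Probes with a detection p under 0.05 on at least 3 of 12 arrays were kept (15765), and each gene was its kept probe with the highest mean (11705 genes). Symbols were updated through RefSeq identifiers (24473 probes matched). Values plus an offset of 50, chosen with the values known, were put on the log2 scale and fitted with limma 3.58.1 in R 4.3.3, with 4 group means, 8 residual degrees of freedom and 6 contrasts. P-values are two-sided and adjusted by Benjamini and Hochberg over all genes of a contrast. They set each change against the spread between pools, estimated over the 4 groups and moderated across genes. With 3 arrays against 3, the number of arrays limits the precision. The step was tested on simulated data.

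The members, gene lists and tests were chosen with earlier results of these data known. Named were the 10 members with every kept probe, called genes of 3 related lists, the 3 genes nearest in pattern to each called member, Siah2, and the defining markers Adipoq, Svs5 and Gpx5. Alternatives were another offset, filter, normalization, weighting, array set, replicate block and tissue covariates. Promoter letters and coordinates are those of RefSeq GRCm38.p6. The sources used here name no build for the files.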

Additional observations from a re-analysis of the deposited data

How the results depend on the processing

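Main counts of passing members were 2 for diet in knockout, 6 for diet in wild type, 1 for knockout on low fat and 1 averaged over diets, with none on high fat or for the difference of diet effects. Over all genes the counts in these 6 contrasts were 511, 4629, 925, 325, 10 and 12. Leaving out 1 array at a time gave 1 to 2, 4 to 6, 0 to 2 and 0 to 0 members, and 138 to 845, 3534 to 4797, 25 to 1552, 12 to 407, 4 to 33 and 5 to 124 genes, while the Siah2 log2 difference lay between -0.45 and -0.32. Acsm3 in both genotypes, and Acsl5, Acot1 and Acot7 in wild type, passed in all 12 of these fits. The share of all genes that passed in all 12 is not given here, so this is not shown to be particular to these members. With the replicate block, members passing were 1, 6, 0 and 0, and genes 301, 4145, 117, 18, 4 and 6. The numbers do not pair the arrays: the deviations of same-numbered arrays correlated at -0.81 to 0.16, and those of other arrays at -0.56 to 0.70. The lowest and highest values were both between knockout groups. They were those of high fat replicate 2 with low fat replicate 2 (-0.81) and with low fat replicate 1 (0.70). With the epididymal covariate no member passed in these 4 contrasts (0, 0, 0 and 0), genes were 9, 2, 2, 3, 7 and 0, and Acsl4 in wild type reversed to 0.58. That covariate was highest on the 3 wild type low fat arrays. With a seminal vesicle covariate, chosen after seeing the data, members were 0 in all 4 and genes 29, 23, 5, 2, 9 and 4. With a skeletal muscle covariate, chosen likewise, the averaged count was 0, Acsl1 and Acsl4 in wild type no longer passed, and genes for diet were 210 and 3025. With knockout replicates 1 and 3 alone, chosen likewise, members on low fat and averaged were 0 and 0, Acsl4 passed for diet in knockout (-1.40) and Acsm5 did not (-0.74), and genes were 1585 for diet in knockout, 58, 10, 4 and 3. With array weights, Acsl5 for diet in knockout (0.34) and Acot1 (-1.43) and Acot7 (0.34) on low fat also passed. The weighting stopped short of its tolerance. Members on low fat were 3 and genes 1126, 2592, 1361, 17 and 72 for diet in knockout, low fat, averaged, high fat and the difference. With only the groups of a contrast, members were 1 in knockout and 0 on low fat, and genes 134, 4 and 0 on high fat. With probes detected on all 12 arrays, Acsm3 was not tested, members in knockout were 1, and genes were 548 averaged, 1 on high fat and 1 for the difference. Without a filter the averaged count was 0 and genes 193 averaged and 508 on low fat. Cyclic loess and an offset of 30 each gave 0 averaged, and with cyclic loess Acsl1 in wild type no longer passed (0.46). An offset of 30 gave 6 genes on high fat and an offset of 100 gave 20. Causes of these shifts were not tested.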
